A study of Mus musculus with 32 samples.

Results

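Extracellular nucleotides and adenosine are read by microglia through a family of surface receptors and are degraded by enzymes on the same cells. This account follows 8 mouse genes of that system, which were chosen by name: the nucleotide-sensing G protein-coupled receptors P2ry6, P2ry13 and P2ry14, the ATP-gated channels P2rx4 and P2rx7, the adenosine receptors Adora3 and Adora2a, and the ectonucleotidase Entpd1. All 8 were present by Ensembl identifier in each of 3 count tables, which listed 74021, 74016 and 74021 genes. The filter on low counts kept 7 of the 8 in both microglia tables, where Adora2a fell below it, and all 8 in the spinal cord table.

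RNA-seq had been performed on 32 libraries from the lumbar spinal cord. In the first experiment, CD11b+/CD45int cells were sorted from wild-type (WT) mice, whose age the labels do not give (4 libraries), and from SOD1G93A mice, which carry a mutant human SOD1 transgene and develop an amyotrophic lateral sclerosis-like disease. The study's methods give P140 as the age of the SOD1G93A animals. Their cells were split by surface LAG-3, an inhibitory immune checkpoint receptor, into LAG-3-low and LAG-3-high fractions with 5 libraries each. In the second, CD11b+/CD45int cells came from P120 and P140 animals, either SOD1G93A/LAG-3+/+ or SOD1G93A/LAG-3-/- (each group with 3 libraries), and in the third, whole lumbar cord came from the same genotypes at P140 (3 libraries each). All stage and cord groups carry the transgene, so these tables hold no healthy control, and the LAG-3 deletion is present in every cell of the body rather than in microglia alone. Nothing in the labels states that the libraries of a group came from separate animals, so p-values measure the spread between these libraries.

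By way of background, ATP leaks from damaged neurons and is also released by glia. P2X receptors are cation channels opened by ATP, P2rx4 at low and P2rx7 at high concentrations, and P2rx7 opening is a classical trigger of the NLRP3 inflammasome. P2ry6 senses UDP and promotes phagocytosis, P2ry13 senses ADP, P2ry14 senses UDP-sugars, and Entpd1 (CD39) hydrolyses ATP and ADP to AMP, which Nt5e (CD73) converts to adenosine, the ligand of Adora3 and Adora2a.

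On GRCm39 with GENCODE vM39, several of the genes are neighbours. P2rx7 (chr5:122781942-122830400) and P2rx4 (chr5:122845541-122867803) lie on the plus strand with a gap of 15140 bp. P2ry14 (chr3:59021276-59061134) and P2ry13 (chr3:59114539-59118304) lie on the minus strand inside the span of Med12l, with which they share 0 exonic bases. The span of P2ry12, the ADP receptor that marks homeostatic microglia, is separated from that of P2ry13 by a gap of 5377 bp. Adora3 (chr3:105778174-105816242, plus) shares 670 of its 3729 exonic bases with Gm53046 and 154 with Tmigd3 on the same strand, so its counts are uncertain to that extent, although Tmigd3 reached at most 5.16 and Gm53046 at most 1.92 CPM (counts per 1000000 counts, after TMM scaling) in any library of the LAG-3 sort. Antisense transcripts also share exonic bases with P2rx7 (311 with Gm71659), P2rx4 (166 with Gm73173), P2ry14 (103 with Gm65543) and Entpd1 (99 with Gm41846). Adora2a (chr10:75152560-75170628, plus), Entpd1 (chr19:40600810-40731585, plus) and P2ry6 (chr7:100585308-100624173, minus) complete the set. None of the 8 lies on chromosome 6, which carries Lag3.

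RefSeq promoter sequences (250 bases before to 50 after a transcript start) were found for 6 of the 8 genes, all but P2ry6 and Adora2a, and located by exact match in GRCm39. They are shown for P2rx4 and P2rx7, the neighbouring channels that moved in opposite directions between stages in LAG-3+/+ microglia. Adora3 is added because it was lower at P140 together with P2rx7, a call that 5 of 6 fits without 1 library ended. The choice thus followed the stage result, and P2ry6, which also fell, had no promoter to show. Each sequence is written from 5′ to 3′ on the gene's strand, and capitals mark AGGAAGT, a core bound by PU.1, or TGACTCA, an AP-1 site, each on either strand. The windows were chr5:122845357-122845656 for P2rx4, chr5:122781740-122782039 and chr5:122788196-122788495 for the first and second P2rx7 promoter, and chr3:105811487-105811786 for Adora3, all on the plus strand of GRCm39.
P2rx4: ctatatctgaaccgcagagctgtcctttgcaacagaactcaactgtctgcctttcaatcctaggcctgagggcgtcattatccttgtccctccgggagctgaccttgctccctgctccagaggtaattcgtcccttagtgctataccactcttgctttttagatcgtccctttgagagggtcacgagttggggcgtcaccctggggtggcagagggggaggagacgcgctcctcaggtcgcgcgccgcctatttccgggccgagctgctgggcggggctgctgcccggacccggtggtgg
P2rx7, first promoter: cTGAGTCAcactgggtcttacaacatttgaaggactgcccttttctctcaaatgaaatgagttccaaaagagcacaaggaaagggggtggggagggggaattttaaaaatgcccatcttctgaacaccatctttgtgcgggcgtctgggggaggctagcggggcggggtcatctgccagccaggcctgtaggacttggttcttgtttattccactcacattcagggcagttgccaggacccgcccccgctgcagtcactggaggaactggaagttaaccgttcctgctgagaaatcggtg
P2rx7, second promoter: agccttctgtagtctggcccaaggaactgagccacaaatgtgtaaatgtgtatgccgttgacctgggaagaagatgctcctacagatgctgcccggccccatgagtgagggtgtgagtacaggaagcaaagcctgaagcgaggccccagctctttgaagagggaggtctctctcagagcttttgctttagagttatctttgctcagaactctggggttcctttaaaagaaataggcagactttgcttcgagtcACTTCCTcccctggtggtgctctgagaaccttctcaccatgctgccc
Adora3: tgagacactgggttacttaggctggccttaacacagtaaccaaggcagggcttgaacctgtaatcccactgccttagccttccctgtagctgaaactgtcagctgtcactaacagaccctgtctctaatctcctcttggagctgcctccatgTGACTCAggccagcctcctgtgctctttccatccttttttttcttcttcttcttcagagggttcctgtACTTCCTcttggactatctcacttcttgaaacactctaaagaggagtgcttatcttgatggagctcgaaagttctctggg
The P2rx4 promoter was richer in G and C (60.3%, with 18 CpG) than the P2rx7 promoters (53.3% with 8 CpG and 51.7% with 4 CpG) or that of Adora3 (48.3%, 1 CpG). The PU.1 letters stood in the second P2rx7 promoter and in Adora3, and the AP-1 letters in the first P2rx7 promoter and in Adora3, without overlapping each other. Among 32851 RefSeq promoters of this length, 9.35% held the PU.1 letters and 5.20% the AP-1 letters. P2rx4, P2ry13 and Entpd1 held neither in the windows searched, one of 4 P2ry14 promoters held the AP-1 letters, and TCACGTG (an E-box of MiT/TFE factors), TTCNNNGAA (a STAT site) and the interferon-stimulated response element occurred in none of the 11 promoters of the set. Such matches describe letters only and do not show binding.

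Library totals ranged from 9403475 to 49512632 counts. Lag3 followed the sort gate and the genotype: the WT libraries held 0.508 to 9.99 CPM, the LAG-3-low fraction 34.8 to 57.8 and the LAG-3-high fraction 146 to 195, with 53.4 to 62.9 in P120 and 24.5 to 28.1 in P140 LAG-3+/+ microglia, and at most 0.462 in any LAG-3-/- microglia library. In the cord it stood at 43.4 to 74.5 CPM in LAG-3+/+ and 5.50 to 5.72 CPM in LAG-3-/- libraries. The P140 LAG-3+/+ microglia thus held less Lag3 than the P120 ones and less than either fraction of the P140 sort, and replicate 1 of P140 LAG-3-/- microglia resembled them in other measures given below. No value here checks the stage labels independently, so the stage results and the P140 genotype results hold for the libraries as labelled.

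The 10 microglial markers were detected in every sorted group, but the sorted cells were not free of other types: 10 neutrophil markers summed to 5980 to 70492 CPM in WT and to 22843 to 66432 CPM in the LAG-3-low fraction, against 1.21 to 7.33 CPM in the LAG-3-high fraction, in which Lcn2, Cd177, Retnlg and Ly6g were at or under 3 counts. The summed border macrophage and monocyte markers likewise stood at 211 to 578 CPM against 2.96 to 13.97 CPM in these fractions, and the microglial sum at 17764 to 25635 CPM against 27029 to 30049 CPM. WT replicate 4 stood apart (17031 genes detected, mitochondrial share 3.60%), as did WT replicate 1 by its mitochondrial share of 2.99%.

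Per kilobase of exon, P2ry13 was the most abundant of the 8 in every library of every group. In WT microglia its level was 369 ± 202 CPM per kb (SD, n = 4), followed by Entpd1 at 63.3 ± 17.2, while P2ry6 (16.4 ± 10.51), P2rx7 (15.2 ± 6.48) and P2rx4 (12.3 ± 5.76) did not separate beyond their spread. In LAG-3-high microglia the order was P2ry13 (150 ± 11.8, n = 5), P2rx4 (72.01 ± 4.40), Entpd1 (41.6 ± 2.40), P2ry6 (27.4 ± 3.59), P2rx7 (24.6 ± 1.72) and Adora3 (8.90 ± 1.42), with only P2ry6 and P2rx7 overlapping. P2rx4 therefore ranked 5 in WT and 2 in LAG-3-high microglia. Using the longest transcript in place of all exons left P2ry13 first in every microglia group but placed P2rx4 before it in both cord groups. Adora2a and P2ry14 were at the bottom everywhere: Adora2a was at 0 counts in 21 of the 26 microglia libraries, which allows up to 0.261 CPM at 3 counts per library (counting error only), and exceeded 3 counts in 4, at 0.739 to 1.36 CPM.

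**Figure D1:**
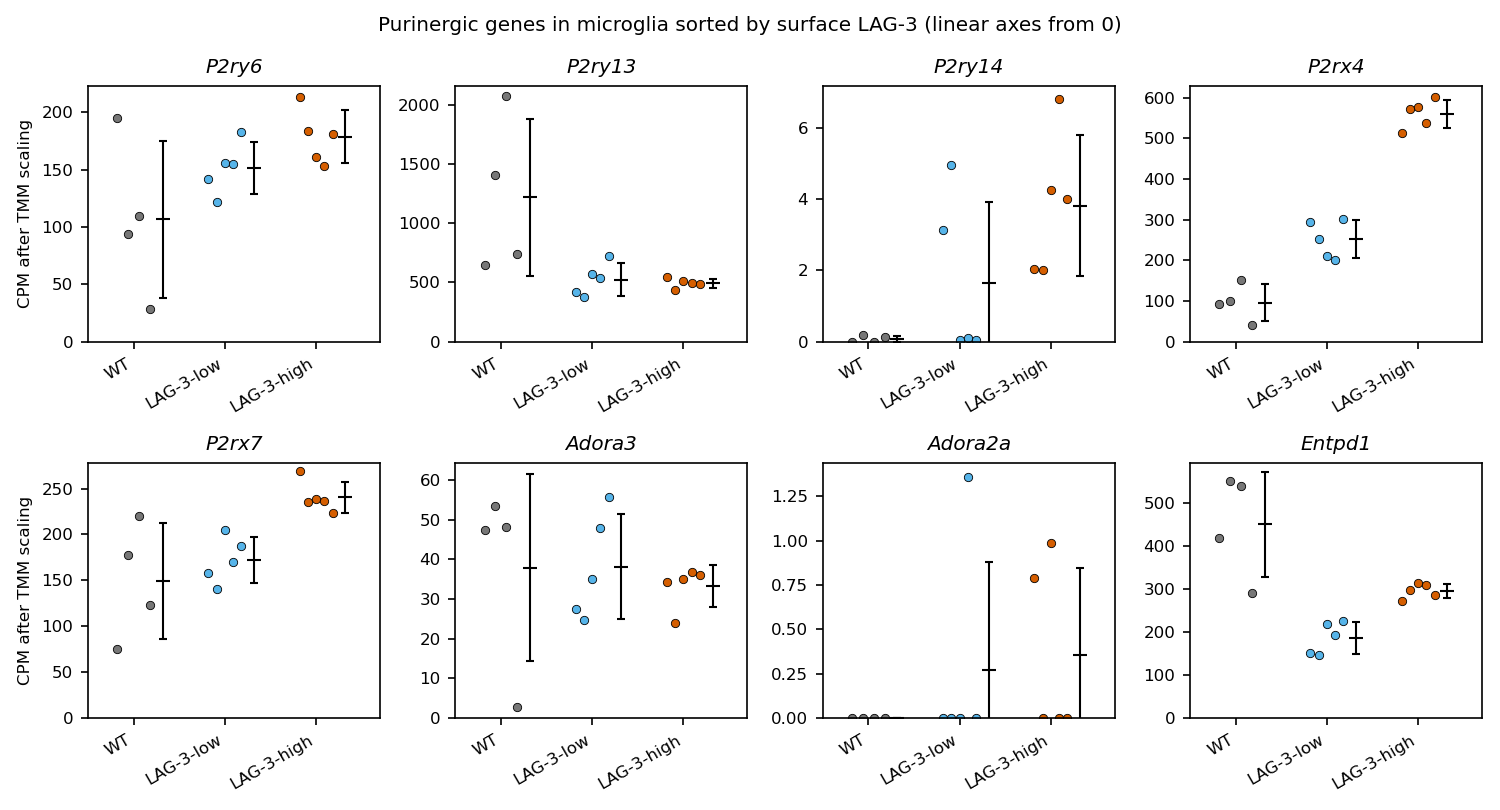
CPM after TMM scaling (linear axes from 0) of the 8 genes in WT (grey), LAG-3-low (blue) and LAG-3-high (orange) microglia, 1 dot per library with the group mean ± SD beside it. P2rx4 rises in steps without overlap between the 3 groups, Entpd1 is lowest in LAG-3-low, and P2ry13 is spread from 648 to 2078 CPM in WT.

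The first question was whether microglia with high surface LAG-3 differ from LAG-3-low microglia of the same disease stage. P2rx4, the ATP-gated channel, was the only member to pass, and it was about 2.22-fold higher in LAG-3-high cells. Its levels were 295, 253, 211, 201 and 302 CPM in the LAG-3-low and 515, 573, 578, 538 and 601 CPM in the LAG-3-high libraries, so the lowest LAG-3-high library exceeded the highest LAG-3-low library. The log2 fold change was 1.15 ± 0.26 (SE), with an adjusted p of 0.0256 (quasi-likelihood test of edgeR, Benjamini-Hochberg over the 16508 tested genes). To be called here, a gene needed an adjusted p under 0.1 together with a log2 fold change beyond 1 in either direction. The P2rx4 call was lost when libraries were scaled to their totals without TMM factors (log2 fold change 0.77, edgeR adjusted p = 0.234), a scaling that moves the median of all genes by -0.38. It kept its side of both thresholds when any 1 of the 10 libraries of these fractions was left out (1.08 to 1.22). The neutrophil and border macrophage sums given above separate the same groups, and their part in the P2rx4 difference was not tested.

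One called member of 7 tested has to be read against 3.49% of all genes called in this comparison, of which 0.818% were called higher. Groups did not overlap for 3 of the 7 members, all higher in LAG-3-high, against 15.5% of all genes (8.95% in that direction). The median log2 fold change of the 7 was 0.48 and that of all tested genes -0.02. P2ry14 passed the filter on low counts only through the LAG-3-high libraries, and without it the median of the other 6 was 0.36.

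Entpd1, which removes extracellular ATP and ADP, was the second member whose groups separated. It measured 151, 146, 218, 193 and 225 CPM in LAG-3-low and 272, 298, 314, 310 and 286 CPM in LAG-3-high libraries. Its log2 fold change of 0.67 ± 0.19 had an edgeR adjusted p of 0.0871 and stood under the fold minimum, so it was not called. P2rx7 also separated, at 158, 141, 204, 170 and 187 CPM against 269, 235, 239, 237 and 224 CPM, but its log2 fold change of 0.48 ± 0.24 did not pass (edgeR adjusted p = 0.451).

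The metabotropic receptors overlapped between the fractions. P2ry6 ranged from 121 to 183 CPM (median 155) in the LAG-3-low fraction and from 154 to 214 CPM (median 181) in the LAG-3-high one, a log2 fold change of 0.24 with a 95% interval of -0.50 to 0.97. P2ry13 ranged from 375 to 722 CPM (median 536) and from 439 to 547 CPM (median 493), a log2 fold change of -0.09 (95% interval -0.69 to 0.52). Adora3, a Gi-coupled adenosine receptor, ranged from 24.8 to 55.8 CPM and from 23.9 to 36.8 CPM (log2 fold change -0.20, 95% interval -1.33 to 0.93). P2ry14 gave 36, 30, 69, 96 and 57 counts in the LAG-3-high libraries and 68, 72, 1, 2 and 1 counts in the LAG-3-low libraries (edgeR adjusted p = 0.851). All LAG-3-high libraries held the P2ry14 transcript, whereas the LAG-3-low libraries fell into a pair with similar counts and 3 near 0.

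Among 35 further genes of nucleotide and adenosine handling, 20 were tested and 2 were called in this comparison, both lower, beside 3.49% of all genes. Both passed the filter on low counts only through the LAG-3-low libraries, where they are high, so that their calls are no support for a change of the pathway. Nt5e, the enzyme that completes adenosine formation after Entpd1, was at 0 counts in all 5 LAG-3-high libraries and at 145, 106, 359, 57 and 0 counts in the LAG-3-low libraries. Set against a floor of 3 counts per library, the LAG-3-high mean was lower by at least 32.1-fold (edgeR adjusted p = 0.0696). Slc28a2, a nucleoside importer, measured 16.2 to 41.8 CPM in LAG-3-low libraries and was at 0 in 4 of the 5 LAG-3-high libraries (edgeR adjusted p = 0.0751). The log2 level of P2ry12 fell by 0.88 ± 0.23 in LAG-3-high cells (edgeR adjusted p = 0.0507), which is under the fold minimum. Both called genes are low in the fraction with near-zero neutrophil markers, and the part of those cells in their difference was not tested.

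Against WT microglia, both SOD1G93A fractions were higher in P2rx4 and lower in P2ry13, and these 2 comparisons share the WT libraries. The microglial marker sum was 31790 to 37816 CPM in WT, above both fractions, and the neutrophil sum of WT overlapped that of LAG-3-low but not that of LAG-3-high cells, and their part in the differences from WT was not tested. WT microglia held 91.3, 100.5, 150 and 40.9 CPM of P2rx4, below every SOD1G93A library. The log2 fold change was 2.55 ± 0.30 in LAG-3-high (edgeR adjusted p = 6.33e-05) and 1.40 ± 0.28 in LAG-3-low cells (edgeR adjusted p = 0.00542). P2rx4 was the member with the smallest adjusted p in the LAG-3-high comparison, and the ranges of the 3 groups did not overlap.

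P2ry13, a receptor enriched in resting microglia, measured 648, 1413, 2078 and 739 CPM in the WT libraries. On the log2 scale it fell by 1.30 ± 0.30 in LAG-3-high (edgeR adjusted p = 0.00784) and by 1.22 ± 0.30 in LAG-3-low cells (edgeR adjusted p = 0.0145), where WT replicate 1 lay below the highest LAG-3-low library. Both calls rested on the fold minimum: without WT replicate 3 the log2 fold changes were -0.90 and -0.82.

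Entpd1 did not follow either gene. At 418, 553, 541 and 291 CPM in WT, its log2 level fell by 1.27 ± 0.20 in LAG-3-low cells (edgeR adjusted p = 0.00122), with no overlap. In LAG-3-high cells it was lower than WT by 0.61 ± 0.20 (edgeR adjusted p = 0.0451), under the fold minimum and with WT replicate 4 inside the LAG-3-high range. The order of Entpd1 levels was thus LAG-3-low, LAG-3-high and WT.

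P2ry14 was close to absent from WT, with 0, 2, 0 and 2 counts. It entered the table only through the LAG-3-high libraries, so its call against WT (edgeR adjusted p = 0.0292) is a description. The pooled LAG-3-high to WT ratio of scaled counts was 60.2, from 288 and 4 counts, with every WT library under 3 counts. The 95% exact interval of this ratio, 23.2 to 222, covers counting error only and not the spread between libraries. The fitted log2 fold change, which includes that spread, had a 95% interval of 2.04 to 9.23. For LAG-3-low, P2ry14 was called at an edgeR adjusted p of 0.0718, with 68 and 72 of its 144 counts in 2 libraries, and 5 of 9 fits without 1 library ended the call. P2rx7 differed by a log2 fold change of 0.69 ± 0.25 between LAG-3-high and WT cells (edgeR adjusted p = 0.0644), under the fold minimum, with WT libraries at 74.7, 178, 220 and 123 CPM. P2ry6 (195, 94.2, 109 and 28.7 CPM in WT) and Adora3 (47.4, 53.3, 48.1 and 2.86 CPM in WT) did not pass in either comparison, although without WT replicate 1 P2ry6 was called higher in both (log2 fold change 1.23 and 1.03), and WT replicate 4 held the lowest level of both.

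In all, 3 of 7 members were called for LAG-3-high against WT and 4 of 7 for LAG-3-low against WT, where 27.0% and 21.9% of all genes were called. Without P2ry14, 2 of 6 members were called for LAG-3-high, with a median of 0.25. Member medians were 0.69 and 0.21 on the log2 scale, beside -0.08 and 0.04 for all genes. Leaving out WT replicates 1 and 4 together, a choice made after seeing the data, ended only the P2ry14 calls.

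Of the 20 other pathway genes tested, 7 were called for LAG-3-high against WT (3 higher, 4 lower) and 6 for LAG-3-low against WT (3 higher, 3 lower). The shares of all genes called were 27.0% and 21.9%. P2ry12 fell most clearly, with log2 levels that fell by 2.94 ± 0.25 and by 2.06 ± 0.24 (edgeR adjusted p = 3.51e-06 and 0.000174), followed by the purine nucleoside phosphorylase Pnp (1.94 and 1.67 lower; edgeR adjusted p = 6.83e-05 and 0.000439) and the lysophosphatidylserine receptor Gpr34 (1.49 lower in both; edgeR adjusted p = 0.000393 and 0.000756). Nt5e gave 2, 0, 43 and 0 counts in WT. It was among the 4 called lower for LAG-3-high (edgeR adjusted p = 0.0735) and was not called for LAG-3-low (edgeR adjusted p = 0.256), and it was in the table only through the LAG-3-low libraries. Since P2ry12 fell further than P2ry13, the within-library ratio of P2ry13 to P2ry12 counts ran from 0.106 to 0.305 in WT, from 0.277 to 0.472 in the LAG-3-low and from 0.566 to 0.758 in the LAG-3-high fraction.

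**Figure D2:**
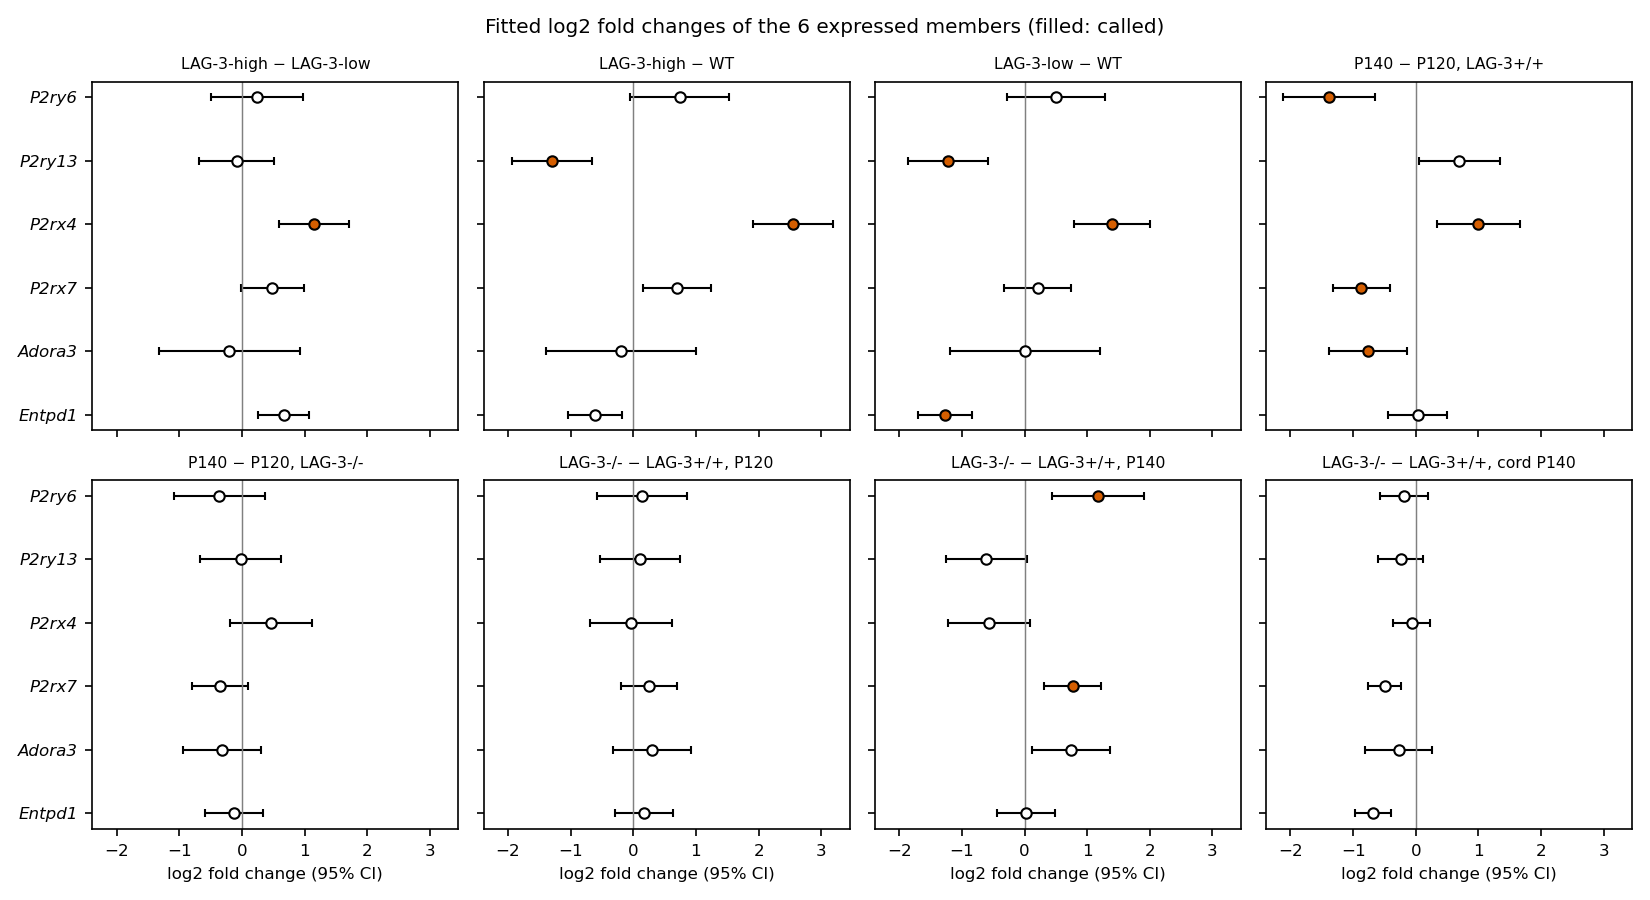
Fitted log2 fold changes (horizontal axis) with 95% intervals for the 6 members with appreciable microglial levels, 1 panel per comparison, and filled points for called genes. P2rx4 lies to the right of 0 in the 3 comparisons of sorted cells and between stages in LAG-3+/+ mice, whereas P2rx7 and P2ry6 lie to the left of 0 between stages and to the right of 0 for LAG-3-/- against LAG-3+/+ at P140.

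The second experiment addressed change between P120 and P140 with and without LAG-3. In LAG-3+/+ microglia, P2ry6, P2rx7 and Adora3 fell and P2rx4 rose. Each group has 3 libraries, and the only threshold was an adjusted p under 0.1 over 18669 tested genes. These 4 calls of 7 members stand beside 27.4% of all genes called, and 5 of 7 members did not overlap between stages, beside 42.2% of all genes. The median of the 7 was 0.03 and that of all genes -0.22.

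P2ry6, the UDP receptor linked to phagocytosis, dropped from 198, 209 and 219 CPM to 79.7, 58.1 and 101 CPM, and its log2 level fell by 1.39 ± 0.33 (edgeR adjusted p = 0.0168). P2rx7 dropped from 181, 173 and 164 CPM to 105, 90.0 and 89.0 CPM, a fall by 0.87 ± 0.21 (edgeR adjusted p = 0.0161). P2rx4 went the other way, from 302, 303 and 222 CPM to 503, 620 and 527 CPM, a rise of 0.996 ± 0.303 (edgeR adjusted p = 0.0414). Both channel genes thus separated the stages in every library, in opposite directions. The P2ry6 and P2rx7 calls held whichever of the 6 LAG-3+/+ libraries was left out, whereas the P2rx4 call was lost without P120 LAG-3+/+ replicate 3 or P140 LAG-3+/+ replicate 2 (edgeR adjusted p up to 0.147) and without TMM factors (log2 fold change 0.51, edgeR adjusted p = 0.139), a scaling that moved the median of all genes by -0.49.

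The log2 level of Adora3 fell by 0.77 ± 0.29, from 48.5, 56.3 and 45.5 CPM to 35.2, 24.0 and 29.2 CPM (edgeR adjusted p = 0.0843). Leaving out 1 library ended this call in 5 of 6 cases (edgeR adjusted p up to 0.220), as did RLE size factors (0.131), no filter on low counts (0.147) and listed sex as a covariate (0.105). P2ry13 measured 623, 846 and 819 CPM at P120 and 1101, 1146 and 1459 CPM at P140, without overlap, and its log2 difference of 0.70 ± 0.29 did not pass (edgeR adjusted p = 0.123) but did with RLE size factors (0.81, edgeR adjusted p = 0.0837), with DESeq2 (0.81, adjusted p = 0.0418) and in a fit of only the groups compared (0.71, edgeR adjusted p = 0.0293). Entpd1 stood at 239, 325 and 344 CPM and at 309, 308 and 310 CPM, a log2 difference of 0.03 with a 95% interval of -0.44 to 0.49. P2ry14 was carried by P140 replicate 1, with 383 counts (15.9 CPM) against 0 and 0 in the other two P140 libraries, so that leaving this library out turned the sign of its uncalled difference.

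The P140 LAG-3+/+ libraries also had fewer genes detected (18896 to 20489 against 24136 to 24942 at P120), lower TMM factors (0.734 to 0.855 against 1.06 to 1.16) and a higher microglial marker sum (38949 to 47465 against 28620 to 31565 CPM). The neutrophil sum was spread from 0.192 to 3470 CPM at P140, against 1745 to 2583 CPM at P120. The part of these differences in the member calls was not tested. The ratio of P2rx4 to P2rx7 counts within a library does not depend on scaling: it was 1.66, 1.75 and 1.35 at P120 and 4.78, 6.89 and 5.92 at P140.

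**Figure D3:**
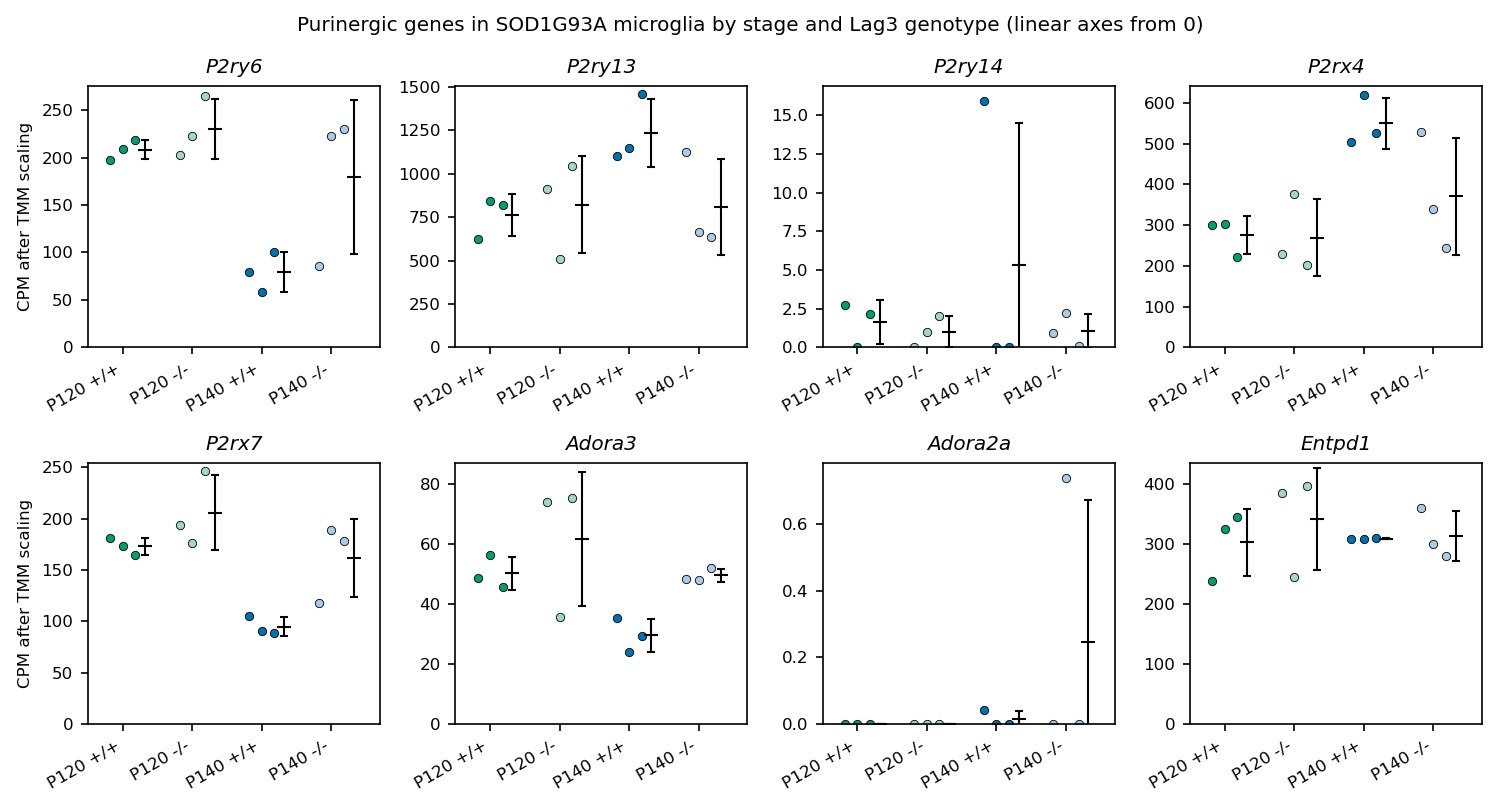
CPM after TMM scaling (linear axes from 0) of the 8 genes in SOD1G93A microglia at P120 and P140, LAG-3+/+ and LAG-3-/-, 1 dot per library with the group mean ± SD beside it. In P140 LAG-3-/- microglia, replicate 1 lies within the range of the P140 LAG-3+/+ libraries for P2ry6, P2ry13 and P2rx4. For P2rx7 it lies above that range, at 118 CPM against at most 105 CPM. For these genes, LAG-3-/- replicates 2 and 3 lie near the P120 levels.

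In LAG-3-/- microglia no member was called between P120 and P140, and neither was any gene of the 18669 tested (0% called, with 1658 genes at an unadjusted p under 0.05). The signs of the members called in LAG-3+/+ microglia were the same here: log2 differences were -0.36 for P2ry6 (95% interval -1.08 to 0.36), -0.35 for P2rx7 (-0.80 to 0.10), -0.32 for Adora3 (-0.94 to 0.30) and 0.46 for P2rx4 (-0.20 to 1.12). All 4 intervals include 0. P140 replicate 1 lay furthest in that direction for P2ry6 (85.8 against 223 and 230 CPM), P2rx7 (118 against 188 and 178 CPM) and P2rx4 (528 against 340 and 245 CPM), but not for Adora3. With 1 library left out, the differences came as near to 0 as -0.02 for P2ry6, -0.17 for P2rx7, -0.15 for Adora3 and 0.12 for P2rx4. Whether the stage change differed between genotypes was tested by the interaction term, for which 0 of 7 members and 0.171% of all genes were called. The P2ry14 term was -1.62 ± 3.29 (edgeR adjusted p = 0.888), from libraries that spread from 0 to 383 counts. Next were P2ry6, 1.03 ± 0.46 (edgeR adjusted p = 0.364), and P2ry13, -0.72 ± 0.42 (edgeR adjusted p = 0.473). Without P140 LAG-3-/- replicate 1 the P2ry6 term was called (edgeR adjusted p = 0.0326).

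At P120, deletion of LAG-3 left no member called, beside 0.0107% of all genes (2 genes, with 551 at an unadjusted p under 0.05). P2ry6 measured 203, 223 and 265 CPM in LAG-3-/- libraries, P2rx7 194, 176 and 247 CPM, P2rx4 228, 377 and 202 CPM, P2ry13 914, 509 and 1044 CPM, Adora3 74.0, 35.7 and 75.2 CPM, and Entpd1 385, 244 and 396 CPM. All 6 ranges overlapped those of LAG-3+/+ libraries, and the log2 differences ran from -0.03 to 0.30. The neutrophil sum differed between these groups, at 1745 to 2583 CPM in LAG-3+/+ and 0.1003 to 3.16 CPM in LAG-3-/- libraries.

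At P140, P2ry6 and P2rx7 were higher in LAG-3-/- than in LAG-3+/+ microglia, the reverse of their fall with stage. These comparisons share the P140 LAG-3+/+ libraries. P2ry6 measured 85.8, 223 and 230 CPM in LAG-3-/- libraries, a log2 rise of 1.17 ± 0.33 (edgeR adjusted p = 0.0711), with replicate 1 inside the LAG-3+/+ range. P2rx7 measured 118, 188 and 178 CPM and did not overlap LAG-3+/+, a rise of 0.77 ± 0.21 (edgeR adjusted p = 0.0625). Adora3 measured 48.3, 48.0 and 52.1 CPM, above every LAG-3+/+ library, but did not pass (log2 difference 0.75 ± 0.29, edgeR adjusted p = 0.146), except without TMM factors (1.06, edgeR adjusted p = 0.0831). The remaining members overlapped between genotypes. P2rx4 measured 528, 340 and 245 CPM (-0.57 ± 0.30, edgeR adjusted p = 0.273). P2ry13 stood at 1127, 666 and 634 CPM (-0.61 ± 0.29, edgeR adjusted p = 0.232), and Entpd1 at 361, 300 and 280 CPM (0.02 ± 0.21, edgeR adjusted p = 0.969).

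These 2 calls of 7 stand beside 10.2% of all genes, and the median of the 7 was 0.02 beside 0.14 for all genes. A fit of only the groups compared ended both calls (edgeR adjusted p = 0.273 for P2ry6 and 0.268 for P2rx7). Both also depended on the libraries included: the count of called members was 4 without LAG-3-/- replicate 1 (P2rx4, P2rx7, P2ry13 and P2ry6), 1 without LAG-3+/+ replicate 1 (P2rx7), and 0 without LAG-3+/+ replicates 2 or 3 or LAG-3-/- replicates 2 or 3. LAG-3-/- replicate 1 had 20260 genes detected, against 23459 and 23896 in replicates 3 and 2, a microglial sum of 43095 CPM, against 27147 and 29285 CPM, and a P2rx4 to P2rx7 ratio of 4.49, against 1.38 and 1.81. The neutrophil sum of replicate 1 was 1.03 CPM, against 4614 and 843 CPM in replicates 3 and 2. In LAG-3+/+ libraries it ran from 0.192 to 3470 CPM. Border macrophage and monocyte sums were 4.22, 5.30 and 170 CPM in LAG-3-/- replicates 1, 2 and 3, and 6.09 to 16.7 CPM in LAG-3+/+ libraries. The part of these cells in the P140 calls was not tested.

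**Figure D4:**
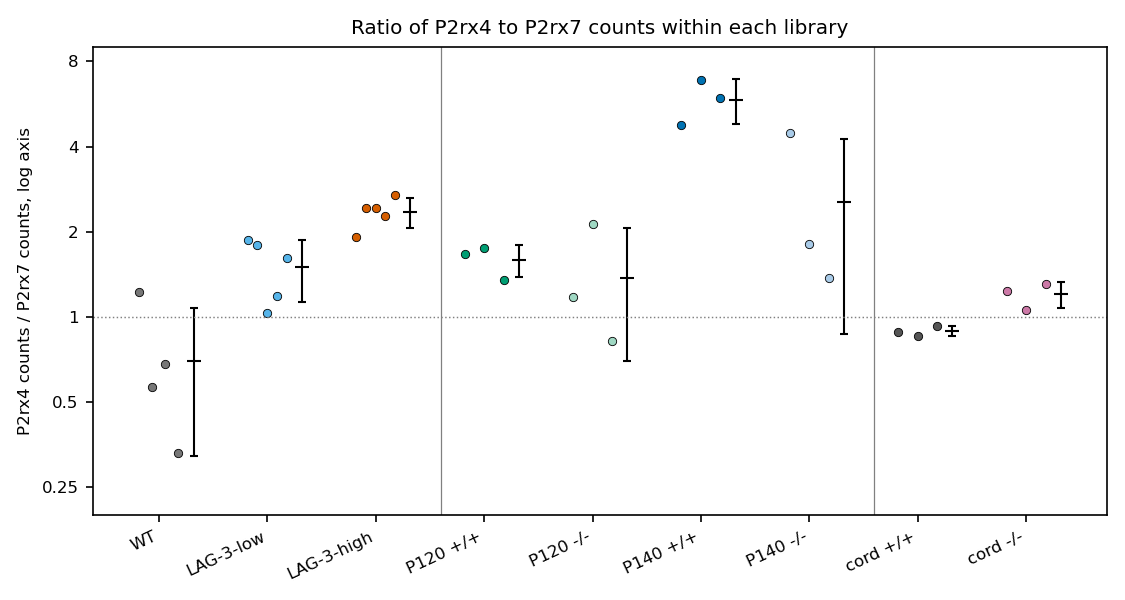
Ratio of P2rx4 to P2rx7 counts within each library (log axis) in all 9 groups, with the group mean ± SD beside the dots and vertical lines between the 3 tables. The ratio is 0.331 to 1.22 in WT, 1.92 to 2.69 in LAG-3-high and 4.78 to 6.89 in P140 LAG-3+/+ microglia, and replicate 1 of P140 LAG-3-/- microglia lies at 4.49.

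The other pathway genes at these stages were mainly transporters and intracellular enzymes. Of 21 tested, 7 were called between stages in LAG-3+/+ (4 higher, 3 lower), 0 in LAG-3-/-, 0 between genotypes at P120, 4 between genotypes at P140 (all higher) and 0 for the interaction. In the same order, the shares of all genes called were 27.4%, 0%, 0.0107%, 10.2% and 0.171%. The lysosomal nucleoside transporter Slc29a3 fell by 1.76 ± 0.32 between stages (edgeR adjusted p = 0.00683) and was 1.72 ± 0.32 higher in LAG-3-/- at P140 (edgeR adjusted p = 0.0282). Pnp rose by 1.04 ± 0.26 and the plasma membrane transporter Slc29a1 by 0.64 ± 0.17 between stages (edgeR adjusted p = 0.0200 and 0.0222). The adenosine receptor Adora1, at 1.82 to 6.61 CPM in LAG-3+/+ and 12.3 to 13.9 CPM in LAG-3-/- microglia at P140, the reticulum enzyme Entpd5 (log2 difference 1.96 ± 0.60) and the transporter Slc29a2 (0 to 0.415 against 0.739 to 11.4 CPM) completed the genotype calls (edgeR adjusted p = 0.0912, 0.0875 and 0.0970). The alternative fits covered only the members, so how firm the calls of pathway genes are was not tested. P2ry12 passed in none of the 5 tests of this table. In LAG-3+/+ microglia it measured 1921, 2932 and 3196 CPM at P120 and 3341, 3520 and 5409 CPM at P140. These ranges did not overlap, as for 42.2% of all genes. In LAG-3-/- microglia its ranges overlapped, at 1457 to 4603 CPM and 1679 to 4177 CPM. Nt5e was removed by the filter.

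The third experiment asked how the genes stood in whole P140 cord, where microglia are a minor part and where fewer cells of a type and less RNA per cell cannot be told apart. No member was called between genotypes at the thresholds of the first experiment, beside 7.52% of all genes, yet Entpd1 and P2rx7 were lower in LAG-3-/- cord at smaller folds. Entpd1 measured 30.2, 23.3 and 30.8 CPM in LAG-3+/+ and 18.6, 16.5 and 17.6 CPM in LAG-3-/- cord, a log2 difference of -0.68 ± 0.13 (edgeR adjusted p = 0.00226). P2rx7 measured 31.7, 25.7 and 29.8 CPM against 22.5, 20.6 and 18.9 CPM, a log2 difference of -0.49 ± 0.12 (edgeR adjusted p = 0.00775). Neither gene overlapped between genotypes, but neither reached the fold minimum, and an adjusted p under 0.1 was common in this table (47.1% of all genes), as was a lack of overlap (51.6%).

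P2rx4, by contrast, was level with its LAG-3+/+ values, at 28.0, 22.1 and 27.7 CPM against 27.9, 21.9 and 24.7 CPM (log2 difference -0.07, 95% interval -0.36 to 0.22). The P2rx4 to P2rx7 ratio was accordingly 0.885, 0.858 and 0.929 in LAG-3+/+ and 1.24, 1.06 and 1.31 in LAG-3-/- cord. P2ry6 (10.2 to 12.7 against 7.89 to 11.96 CPM), P2ry13 (17.8 to 23.9 against 15.3 to 22.4 CPM), Adora3 (2.49 to 4.02 against 2.29 to 2.75 CPM) and P2ry14 (1.21 to 1.68 against 1.14 to 2.01 CPM) overlapped between genotypes. Adora2a, which was at or near 0 in microglia, exceeded 3 counts in all 6 cord libraries, at 0.897 to 1.20 CPM in LAG-3+/+ and 0.6004 to 1.26 CPM in LAG-3-/-. Member log2 differences were negative for 7 of 8, with a median of -0.21 beside 0.00 for all genes.

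Cell-type markers moved with genotype in the cord as well. The microglial sum was 1321 to 1675 CPM in LAG-3+/+ and 966 to 1361 CPM in LAG-3-/-, the oligodendrocyte sum 14376 to 15656 and 20466 to 28477 CPM, the astrocyte sum 12245 to 14081 and 7062 to 11531 CPM, the endothelial sum 117 to 124 and 90.7 to 100.5 CPM, and the mitochondrial share 4.60 to 6.78% and 7.99 to 14.8%. The microglial ranges overlapped, while the other ranges given here did not. Their part in the Entpd1 and P2rx7 differences was not tested. The sign of the P2rx7 difference in cord was opposite to that in P140 microglia, where LAG-3-/- libraries were higher. Of 29 other pathway genes tested in cord, 1 was called, beside 7.52% of all genes. It was the intracellular nucleotidase Entpd7, whose log2 level fell by 1.26 ± 0.15 (edgeR adjusted p = 0.000301). Nt5e was lower by 0.43 ± 0.16 (edgeR adjusted p = 0.0594), under the fold minimum, and P2ry12 differed by -0.04 ± 0.15 (edgeR adjusted p = 0.869).

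**Figure D5:**
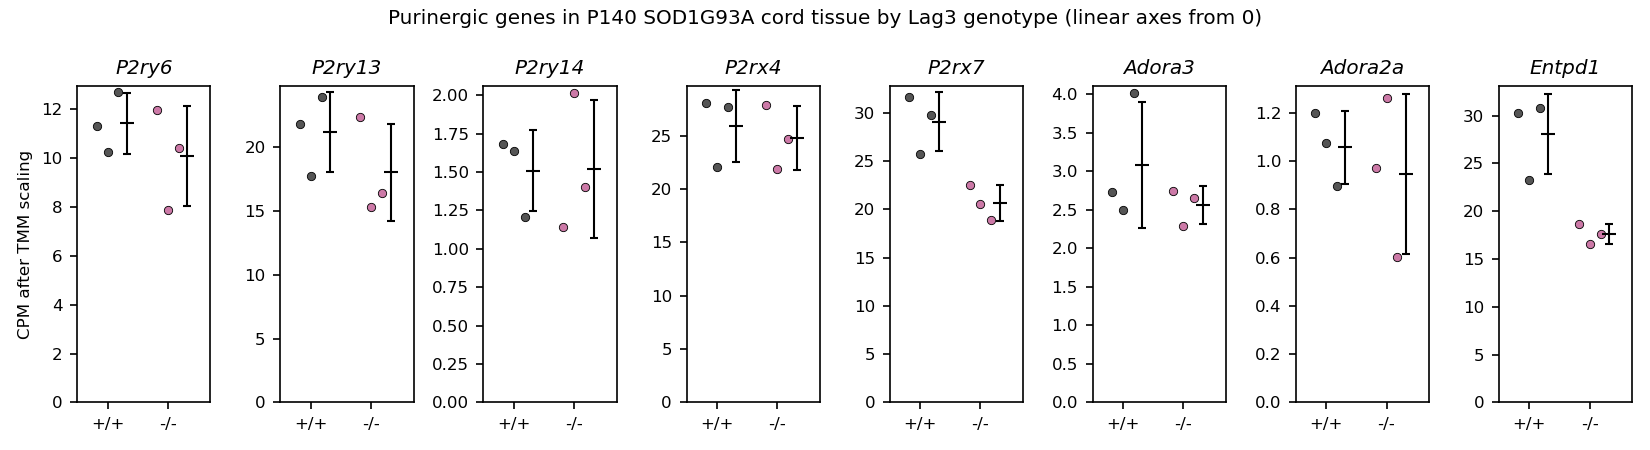
CPM after TMM scaling (linear axes from 0) of the 8 genes in P140 SOD1G93A cord, LAG-3+/+ (grey) and LAG-3-/- (pink), 1 dot per library with the group mean ± SD beside it. Entpd1 and P2rx7 separate the genotypes, and the other 6 genes overlap.

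The genes with the most similar pattern over the 14 sorted libraries, by Pearson's r of log2 CPM, are given as a description, since libraries of a group share their condition. For P2rx4 they were Glmp, Atp8a1 and Ctsb (r = 0.99 each), and over the 12 stage libraries the same pairs gave 0.94, -0.81 and 0.66. P2rx7 was most like Ptk2b, Trf and Tmx1 (0.95 each), with 0.95, -0.97 and -0.97 over the stage libraries. The likeness of P2rx7 to Trf and Tmx1 thus turned from positive to negative between the tables, and that to Ptk2b did not. P2ry6 was nearest to Fam76a (0.97, then 0.87), P2ry13 to Serinc3 (0.97, then 0.92), Adora3 to Epm2aip1 (0.98, then 0.53) and Entpd1 to Cd81 (0.92, then 0.06).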

How the data were processed

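RNA-seq of sorted microglia (26 libraries) and lumbar cord (6 libraries) was used as 3 tables, of the LAG-3 sort, the stage and genotype groups, and the cord. The authors deposited estimated counts per Ensembl gene, which are neither whole nor normalized, made with Trim Galore 0.6.7, Salmon 1.9.0 and R 4.2.1 on GRCm39 per the submitters' processing notes, and imported with tximport. The annotation release is not given in the sources used here. The kit for sorted cells does not mark strand, so overlapping antisense transcripts cannot be separated there. For the cord, the labels name the same kit while the study's methods name a directional one.

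Counts were rounded and gene names matched by identifier to GENCODE vM39 (71, 66 and 71 identifiers absent). Fits were made per table with the robust quasi-likelihood test of edgeR (version 4.0.16, R 4.3.3) after filterByExpr at a minimum count of 10 and a total of 15, using TMM factors, and p-values were adjusted after Benjamini and Hochberg over 16508, 18669 and 17702 tested genes. Calls needed an adjusted p under 0.1 and, for the sort and cord tables, a log2 fold change beyond 1 in either direction. CPM values use TMM-scaled totals, and CPM per kb divides by the union of exons. The fit was tested on simulated counts. Alternatives were DESeq2 1.42.0, RLE factors, no TMM factors, other filters and thresholds, listed sex as a covariate, the replicate number as a block, fits restricted to the compared groups, and each library of the compared groups left out in turn. Deviations from the group means correlated over 0.1 in 0 of 18 same-numbered pairs of the stage table and 0 of 3 of the cord table. In the sort table, 1 of 5 same-numbered pairs did so (mean r 0.049), against 0 of 20 differently numbered pairs (mean r -0.012). Same-numbered libraries of both LAG-3 fractions also have the same listed sex, and whether these fractions are paired is not settled by these values. The main fits did not pair samples, and the replicate block was run as an alternative.

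All 8 members are named. Other pathway genes are named where called between LAG-3 fractions or genotypes, otherwise the 3 called genes with the smallest adjusted p, with P2ry12 and Nt5e always given. Members and lists were chosen with earlier results of these data known. Intervals on counts cover counting error only.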

Additional observations from a re-analysis of the deposited data

Results flagged for a closer look

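In 22 groups of 4 or 5 libraries tested by Dixon's criterion at the 95% level, 3 values stood apart, where chance alone gives about 1 in 20 groups. Adora3 was at 2.86 CPM in WT replicate 4, while the other WT libraries lay between 47.4 and 53.3 CPM. Adora3 was at 23.9 CPM in LAG-3-high replicate 2, while the other LAG-3-high libraries lay between 34.2 and 36.8 CPM. Adora2a was at 1.36 CPM in LAG-3-low replicate 4 and at 0 in the other LAG-3-low libraries. In such a group any value above 0 is flagged, so the chance rate does not apply to this flag. No call on a member rested on these values, since Adora3 passed in none of the comparisons of sorted cells and Adora2a was not tested there.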

How the results depend on the processing

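Of 1143 values recomputed under alternatives, 1034 kept their direction and side of the threshold, 46 changed sign, 45 lost and 14 gained a call, and 4 changed the order of levels. Most of the 1143 belong to differences not called in the main fits, which count as kept while they stay uncalled. The 45 losses come only from called differences, so the 1034 do not measure how firm the calls are. The number of members called moved by over 1.5 times in these settings. Without TMM factors, 0 members were called between LAG-3 fractions. With no fold minimum, 2 were called between LAG-3 fractions, 5 for LAG-3-high against WT and 2 in cord, and with a fold minimum of 1 on the log2 scale in the stage table, 1 between stages in LAG-3+/+ and 1 between genotypes at P140. Between genotypes at P140, 0 were called with the replicate block, at an adjusted p under 0.05, or in a fit of only the groups compared. Single calls also changed where the count moved less. Between stages in LAG-3+/+, P2rx4 was lost without TMM factors, Adora3 was lost with RLE factors, no filter, listed sex or an adjusted p under 0.05, and P2ry13 was gained with DESeq2, RLE factors or only the groups compared. Adora3 was gained between genotypes at P140 without TMM factors. P2ry14 was lost in LAG-3-low against WT with no filter, listed sex, the replicate block or an adjusted p under 0.05, and in both comparisons with WT without WT replicates 1 and 4. When each library of the compared groups was left out in turn, the count ranged from 2 to 4 for LAG-3-high against WT, from 2 to 4 for LAG-3-low against WT, from 2 to 4 between stages in LAG-3+/+, from 0 to 4 between genotypes at P140 and from 0 to 1 for the interaction. The cause of these changes was not tested.

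The sign changes concerned only differences that were not called. They were P2ry6 between LAG-3 fractions without TMM factors (-0.15), Adora3 in LAG-3-low against WT with listed sex (-0.014), with the replicate block (-0.023) and without WT replicates 1 and 4 (-0.34), and P2rx7 in that comparison without those libraries (-0.12). Entpd1 changed sign between genotypes at P140 with DESeq2 and RLE factors (-0.064 each), between stages in LAG-3+/+ without TMM factors (-0.47) or without a filter (-0.013), and in the interaction without TMM factors (0.042). P2rx4 between genotypes at P120 was 0.056 without TMM factors, and P2ry13 between stages in LAG-3-/- was 0.0013 with the replicate block. P2ry14, whose counts differ widely within groups, changed sign between stages in LAG-3-/- without TMM factors (-0.28) and with the block (-0.017), between genotypes at P120 with the block (0.17), with listed sex between genotypes at P140 (1.95) and in the interaction (2.69), and in cord without TMM factors (-0.11), without a filter (-0.017) and with the block (-0.00029). The replicate block ended the calls of P2ry6 and P2rx7 between genotypes at P140 (adjusted p = 0.108 and 0.119 by edgeR) and of P2ry14 in LAG-3-low against WT (0.218) and changed no other call.

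Leaving out 1 library at a time gave log2 ranges across 0 as follows. Adora2a ranged from -0.43 to 0.071 for cord genotypes. Adora3 ranged from -0.57 to 0.031 for LAG-3-high against WT and from -0.38 to 0.23 for LAG-3-low against WT. Entpd1 ranged from -0.12 to 0.13 for stages in LAG-3+/+ and from -0.088 to 0.10 for genotypes at P140. P2rx4 ranged from -0.36 to 0.13 for genotypes at P120 and from -0.17 to 0.017 for cord genotypes. P2ry13 ranged from -0.19 to 0.056 for LAG-3-high against LAG-3-low, from -0.10 to 0.36 for genotypes at P120 and from -0.34 to 0.19 for stages in LAG-3-/-. P2ry14 ranged from -8.89 to 2.27 for stages in LAG-3+/+, from -2.78 to 8.96 for the interaction, from -1.03 to 1.07 for stages in LAG-3-/-, from -3.46 to 8.26 for genotypes at P140 and from -0.24 to 0.18 for cord genotypes.

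Depth limits the low members: P2ry14 in WT and Adora2a in most microglia libraries lie at or under 3 counts. P2ry14 exceeded 3 counts in only 2 of 5 LAG-3-low libraries, and in 1 or 2 of the 3 libraries of each stage group. In cord, Adora2a rests on 12 to 32, P2ry14 on 20 to 51 and Adora3 on 48 to 103 counts per library. Groups of 3 to 5 libraries with common dispersions of 0.691 and 0.603 in the microglia tables left wide intervals, against 0.0247 in cord. Between genotypes at P140, P2ry6 and P2rx7 are the values most dependent on single libraries, and LAG-3-/- replicate 1 is the library whose removal raised the count.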

Other observations

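The LAG-3 sort and the stage table both sampled P140 SOD1G93A microglia that carry Lag3, as fractions in one and unsorted by LAG-3 in the other. Within-library count ratios do not depend on scaling and can be set side by side, although the tables were made separately. The P2rx4 to P2rx7 ratio ran from 1.03 to 1.87 in the LAG-3-low and from 1.92 to 2.69 in the LAG-3-high fraction, but from 4.78 to 6.89 in the P140 LAG-3+/+ libraries, above both fractions. The P2ry6 to P2ry13 ratio was 0.254 to 0.342 and 0.312 to 0.419 in the fractions, but 0.0507 to 0.0724 in P140 LAG-3+/+ libraries, below both. The P120 LAG-3+/+ libraries, at 1.35 to 1.75 and 0.247 to 0.318, lay near the fractions instead. The P2ry13 to P2ry12 ratio did not set the P140 LAG-3+/+ libraries apart in this way. At 0.270 to 0.330 they overlapped the P120 LAG-3+/+ libraries (0.256 to 0.324) and the LAG-3-low fraction (0.277 to 0.472). Only the LAG-3-high fraction, at 0.566 to 0.758, lay apart from them. Lag3 itself stood at 24.5 to 28.1 CPM in the P140 LAG-3+/+ libraries, under the 34.8 to 57.8 CPM of the LAG-3-low fraction. Replicate 1 of P140 LAG-3-/- microglia, at 4.49 and 0.0761 for the first ratios, lay close to the P140 LAG-3+/+ libraries, whereas replicates 2 and 3 were at 1.81 and 1.38 for the P2rx4 to P2rx7 ratio and at 0.334 and 0.363 for the P2ry6 to P2ry13 ratio. Whether the labels of these libraries hold was not tested. No test links the tables, and the cause of the difference was not tested.

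P2ry14 varied between libraries of 1 group more than any other tested member. In the stage table it gave 133, 1 and 85 counts at P120 and 383, 0 and 0 counts at P140 in LAG-3+/+ microglia, and 0, 31 and 80 and then 23, 92 and 2 counts in LAG-3-/- microglia. In cord tissue, where every library held it, it gave 45, 38 and 31 counts in LAG-3+/+ and 20, 51 and 28 counts in LAG-3-/- libraries.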
